A study of Homo sapiens with 8 samples.

Results

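The genes described here encode 8 proteins that detect nucleic acids in the cytosol and endosomes or relay and limit that signal, namely CGAS, STING1, TBK1, IRF3, TREX1, IFIH1, MAVS and TLR3. They were taken by symbol from the gene count table of the series, and all 8 were found among its 61517 rows. All 8 passed the filter on low counts, as did 15554 rows in all. Messenger RNA was captured by its poly(A) tail from KYSE150, an established line of human esophageal squamous cell carcinoma that was kept in RPMI-1640 with serum and antibiotics. There were 4 groups of 2 libraries: cells in normoxia, cells in hypoxia, hypoxic cells given sodium oxamate, and hypoxic cells given oxamate together with NALA. NALA is taken here to be the sodium lactate that the treatment protocol names. Oxamate is an inhibitor of lactate dehydrogenase, the enzyme that interconverts pyruvate and lactate. The labels state no oxygen level, dose or duration, and no group received lactate without oxamate. No normoxic group received oxamate, so a difference with oxamate that depends on hypoxia cannot be told apart from one that does not. By its title, the series concerns lactylation of the hypoxia-induced factor HIF-1α and the escape of tumour cells from immunity.

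Cells recognise foreign or misplaced DNA in the cytosol through cGAS, which makes the second messenger cGAMP. cGAMP binds STING on the endoplasmic reticulum, and STING recruits the kinase TBK1, which phosphorylates the transcription factor IRF3. Double-stranded RNA is detected in the cytosol by MDA5, the product of IFIH1, which signals through the mitochondrial adaptor MAVS, and in endosomes by TLR3, which signals through the adaptor TRIF. Both RNA routes also converge on TBK1 and IRF3, whose best known products are type I and type III interferons. TREX1 is an exonuclease that degrades DNA in the cytosol and so limits activation of cGAS. In carcinoma cells these routes are studied because they connect damaged or displaced DNA to immune recognition.

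Total counts ran from 21845676 to 29406061 per library, and 3 counts, the floor used here, equal 0.102 to 0.137 CPM, which is the count scaled to a common library total. Group labels were checked on hypoxia-responsive genes, and CA9, NDRG1, VEGFA and LDHA all rose in hypoxia without drug (median log2 fold change 3.68). All 4 were lower with oxamate than in hypoxia alone (median -3.28) and higher again once lactate was added to oxamate (1.75). With oxamate 3 of the 4 were above normoxia and 1 was below it. With lactate added all 4 were above normoxia (median 1.76). For the group given oxamate alone, the hypoxia label therefore rests on the sample titles. The cause of these differences was not tested. The 6 squamous epithelial markers summed to between 2131 and 3679 CPM of the library totals, with KRT5, EPCAM and CDH1 abundant and SOX2 at 12 counts or fewer. The 8 leukocyte markers summed to 2.57 to 3.75 CPM in normoxic libraries, 7.32 to 7.54 in hypoxic ones, at most 3.09 under oxamate and 4.52 to 5.40 once lactate was added. Of these, MS4A1 had 0 counts in every library, and PTPRC had 3 counts in a single library. CSF1R had the most counts of the 8 in every library. Its counts were 57 and 82, 165 and 142, 73 and 63, and 71 and 107 in the order of groups above. The 3 markers that were tested, CSF1R, CD3E and ITGAM, all passed as higher in hypoxia. LYZ had 33 counts in replicate 1 with lactate added. The 7 fibroblast and endothelial markers summed to 4.28 to 4.29, 10.5 to 11.1, 1.33 to 2.28 and 1.33 to 1.51 CPM in the same order, with COL3A1 at 0 throughout. COL1A1 had the most counts of the 7 in every library, at 59 and 81, 230 and 222, 19 and 33, and 16 and 28. These low sums moved with some of the genes below, and their part in the results was not tested. In bulk RNA, fewer cells of a type and less RNA per cell cannot be told apart.

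Levels below are CPM scaled by TMM factors, which correct for differences in library composition, given for replicate 1 and then replicate 2 of a group. Differences are log2 fold changes ± standard error from one edgeR quasi-likelihood fit of all 8 libraries, and a gene passed when its p adjusted over the 15554 tested genes was under 0.05. Nothing in the labels says whether both libraries of a group are from different cultures, so these p-values measure only a spread between libraries that may be technical. That spread was small, with a common biological coefficient of variation of 3.06%, and most genes passed in every comparison. The share of all tested genes that passed is therefore given with the counts.

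**Figure D1:**
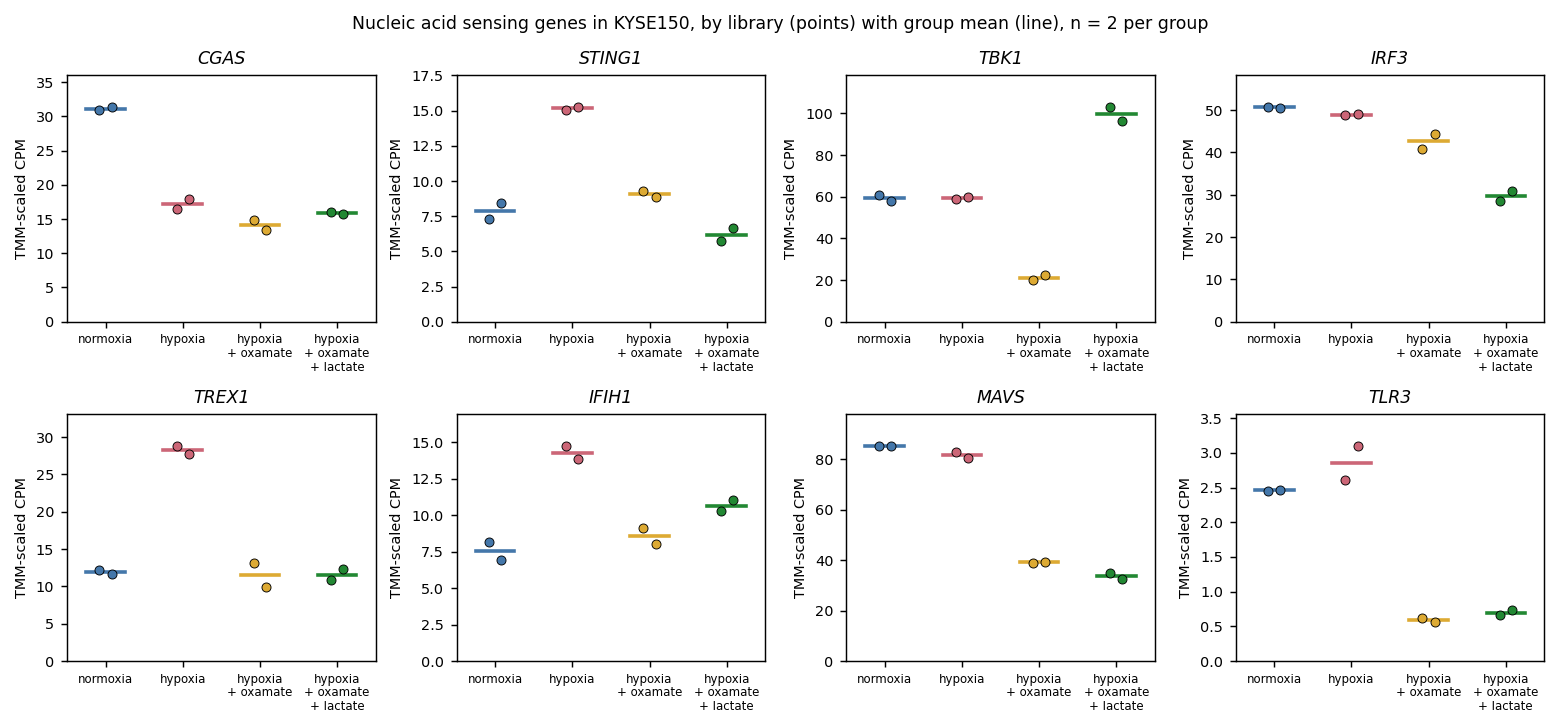
Level of each gene in TMM-scaled CPM (vertical axes, each from 0) in the 4 groups; points are the 2 libraries of a group and lines their mean. TBK1 runs from 19.8 in an oxamate library to 103 in a library with lactate added, and TLR3 is under 1 CPM in the 4 oxamate-treated libraries.

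Length-adjusted levels allow a rough ranking of the genes, because the length used is that of all annotated exons and not of the transcripts expressed. Divided by the kilobases of exon that GENCODE 29 gives each gene, the highest levels in normoxia were those of IRF3 (13.3 ± 0.061 CPM per kb, SD, n = 2) and TBK1 (12.4 ± 0.42). TREX1, CGAS and MAVS followed at 7.87 ± 0.22, 7.49 ± 0.087 and 7.24 ± 0.0041 CPM per kb. STING1 (2.04 ± 0.21) and IFIH1 (1.48 ± 0.17) were lower, and TLR3 was lowest at 0.366 ± 0.0011. TLR3 also held the last place in the other 3 groups, while the first place changed. It went to TREX1 in hypoxia (18.6 ± 0.52 CPM per kb), to IRF3 with oxamate (11.2 ± 0.64) and to TBK1 with lactate added (21.0 ± 1.0). The places of TREX1 and IRF3 in every group are subject to the overlaps described below.

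**Figure D2:**
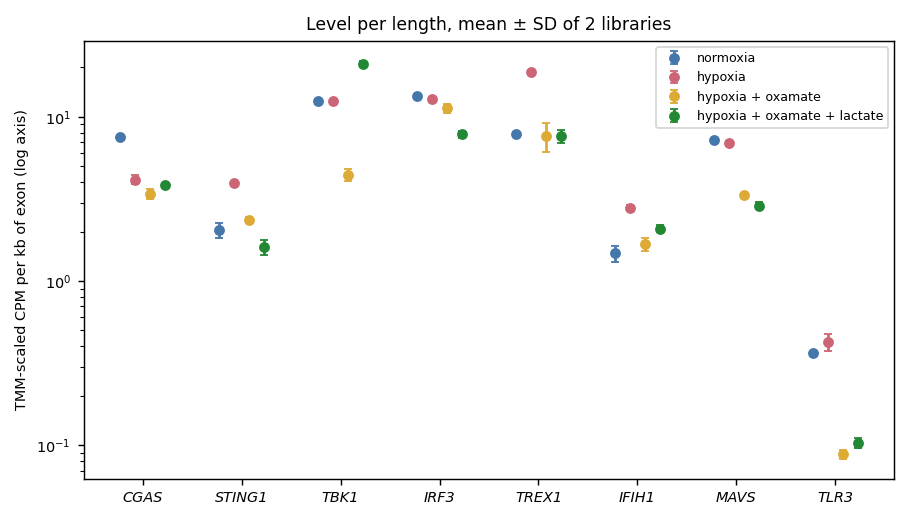
Mean ± SD of 2 libraries in TMM-scaled CPM per kb of exon (log axis) for each gene, coloured by group. TBK1 with lactate added, at 21.0 CPM per kb, is the highest value shown and TLR3 with oxamate the lowest, at 0.0882.

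Short sequences upstream of these genes were searched for motifs of the factors named in the study and the pathway. RefSeq promoter windows on GRCh38.p14 were matched for 5 genes, TBK1, TREX1, IFIH1, MAVS and TLR3. The 250 bases before the RefSeq start, called the start here, were read on both strands. The core bound by HIF (ACGTG or GCGTG) was in 2 of the 5, TBK1 and MAVS, against 43.2% of 35116 promoters. The core of the interferon-stimulated response element bound by IRF factors, GAAA, any 2 bases and GAAA, was in IFIH1, against 3.02% of promoters. The STAT element TTCNNNGAA was in TLR3, against 6.57%. The promoter of TBK1 is shown because it holds the HIF core and TBK1 had the largest increase of the 8 genes with lactate. MAVS, which also holds that core, was lower with lactate added to oxamate (log2 fold change -0.21). TBK1 itself did not pass in hypoxia against normoxia (0.01). The promoters of IFIH1 and TLR3 are shown because they hold the rarer interferon-pathway motifs. Capitals mark the HIF core in TBK1 (chr12:64451870-64452119, plus strand), the response element core in IFIH1 (chr2:162318685-162318934, minus strand) and TTCNNNGAA in TLR3 (chr4:186068906-186069155, plus strand), each 5′ to 3′.
TBK1: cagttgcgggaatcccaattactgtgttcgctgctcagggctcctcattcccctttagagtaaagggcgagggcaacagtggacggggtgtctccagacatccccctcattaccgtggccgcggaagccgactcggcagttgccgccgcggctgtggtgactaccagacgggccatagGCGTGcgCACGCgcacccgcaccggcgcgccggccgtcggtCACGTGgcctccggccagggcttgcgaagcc
IFIH1: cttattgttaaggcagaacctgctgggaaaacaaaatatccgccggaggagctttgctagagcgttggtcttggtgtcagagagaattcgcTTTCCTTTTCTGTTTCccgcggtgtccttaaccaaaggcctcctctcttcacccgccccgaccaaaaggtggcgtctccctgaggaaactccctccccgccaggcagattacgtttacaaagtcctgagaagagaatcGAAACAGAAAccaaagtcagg
TLR3: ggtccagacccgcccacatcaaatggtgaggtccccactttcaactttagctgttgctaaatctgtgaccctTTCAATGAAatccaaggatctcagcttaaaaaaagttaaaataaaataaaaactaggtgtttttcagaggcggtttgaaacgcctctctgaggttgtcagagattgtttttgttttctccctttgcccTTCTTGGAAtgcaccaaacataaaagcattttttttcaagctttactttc
In TBK1 the last capitals, CACGTG, hold the core on both strands and are also an E-box, a motif of MYC and other factors that was in 6.34% of promoters. In IFIH1 a pair of overlapping matches lies at 159 bases before the start and another match 21 bases before it. The GENCODE 29 starts given below differ from those of RefSeq. GENCODE 29 begins TBK1 at 64451880, upstream of all 4 HIF core matches, so by that annotation these matches lie inside the gene. The windows of IFIH1 and TLR3 also reach past their GENCODE 29 starts. A match describes these letters only and is not evidence of binding.

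The DNA sensor gene CGAS (ENSG00000164430) lies on the minus strand of chromosome 6 from 73413515 to 73452276 on GRCh38 and is protein-coding, as are the other 7 genes. It was at 30.9 and 31.4 CPM in normoxic libraries, 16.5 and 18.0 in hypoxic ones, 14.9 and 13.4 under oxamate and 16.0 and 15.8 once lactate was added. The normoxia libraries stood above all 6 hypoxia libraries. CGAS fell in hypoxia by 0.86 ± 0.074 on the log2 scale (adjusted p = 6.42e-10), to 0.553 of its normoxia level. With oxamate it was lower again by a small amount (-0.28 ± 0.083, adjusted p = 0.00387), a call that was lost in DESeq2 (-0.20), in a fit of the 2 groups alone (-0.18) and without hypoxia replicate 2 (-0.21) or oxamate replicate 2 (-0.11). Lactate gave no passing difference from oxamate alone (0.17 ± 0.087, 95% interval -0.02 to 0.35, adjusted p = 0.102) or from hypoxia (-0.12 ± 0.083, interval -0.29 to 0.06). The latter passed as lower with upper quartile factors (-0.37), with library totals alone (-0.40) and with the stricter count filter (-0.20), and the former as higher with library totals alone (0.20). In order of level, oxamate, oxamate plus lactate and hypoxia were thus neighbours that did not pass against the next, and normoxia was apart.

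STING1 (ENSG00000184584), listed as TMEM173 in GENCODE 29, lies on the minus strand of chromosome 5 from 139475534 to 139482935 and encodes the receptor of cGAMP. Its levels were 7.29 and 8.41 CPM in normoxic libraries, 15.1 and 15.3 in hypoxic ones, 9.29 and 8.86 under oxamate and 5.74 and 6.64 once lactate was added. The groups did not overlap, and hypoxia was the highest. STING1 rose 1.93-fold in hypoxia (0.95 ± 0.10, adjusted p = 3.05e-08), in the direction opposite to CGAS. It fell with oxamate (-0.74 ± 0.10, adjusted p = 1.01e-06) and was lower still when lactate was added (-0.54 ± 0.12 against oxamate, adjusted p = 4.36e-04; -1.28 ± 0.11 against hypoxia). The oxamate level did not pass against normoxia (0.20 ± 0.11, adjusted p = 0.105). It passed as higher with RLE size factors (0.29), under the stricter filter (0.28), in a fit of the 2 groups alone (0.28) and without oxamate replicate 2 (0.33). With lactate added the level was below that of normoxia (-0.34 ± 0.12, adjusted p = 0.0163), a call lost in DESeq2 (-0.31) and without normoxia replicate 2 (-0.23) or oxamate plus lactate replicate 1 (-0.24).

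TREX1 (ENSG00000213689), encoding the DNA exonuclease, lies on the plus strand of chromosome 3 from 48465811 to 48467645. It was at 12.2 and 11.7 CPM in normoxic libraries, 28.8 and 27.7 in hypoxic ones, 13.2 and 9.91 under oxamate and 10.8 and 12.3 once lactate was added. Hypoxia stood apart, and the other 3 groups overlapped and did not pass against one another. The fitted difference was 1.24 ± 0.098 for hypoxia against normoxia (adjusted p = 3.10e-10) and -1.29 ± 0.10 for oxamate against hypoxia (adjusted p = 1.94e-10). With lactate added it did not pass against oxamate alone (0.01 ± 0.12, 95% interval -0.23 to 0.25) and was below hypoxia (-1.28 ± 0.10). These values are uncertain, because models of ATRIP on the same strand cover 100% of the exon bases of TREX1. ATRIP encodes the partner of the ATR checkpoint kinase. Its log2 fold changes were -1.01 in hypoxia, 0.70 under oxamate and -0.74 when lactate joined oxamate, and all passed. When the counts of both genes were summed, an alternative chosen after the data were seen, the sum was at 32.2 and 32.1 CPM in normoxic libraries, 38.6 and 38.1 in hypoxic ones, 29.1 and 26.7 under oxamate and 21.0 and 21.8 once lactate was added. The sum rose in hypoxia by 0.25 (adjusted p = 6.70e-04) and differed by -0.46 with oxamate. It differed by -0.38 with lactate added to oxamate (adjusted p = 5.18e-05), where TREX1 alone did not pass. Against hypoxia the sum differed by -0.84 with lactate added, and against normoxia it was lower both with oxamate (-0.20, adjusted p = 0.00642) and with lactate added (-0.58, adjusted p = 6.86e-08). For lactate added to oxamate, TREX1 alone was also lower when oxamate replicate 2 was left out (-0.27). With library totals alone, TREX1 passed as lower than normoxia both with oxamate (-0.43) and with lactate added (-0.39). TREX1 held 36.5% to 37.8% of the summed counts in normoxia and 72.7% to 74.7% in hypoxia, so the division of reads between the genes also differed.

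Of the RNA sensors, IFIH1 (ENSG00000115267), encoding MDA5, lies on the minus strand of chromosome 2 from 162267079 to 162318703. It was at 8.15 and 6.95 CPM in normoxic libraries, 14.7 and 13.8 in hypoxic ones, 9.10 and 8.01 under oxamate and 10.3 and 11.0 once lactate was added. Hypoxia was highest and lactate added second, and the ranges of oxamate and normoxia overlapped. IFIH1 rose 1.90-fold in hypoxia (0.92 ± 0.11, adjusted p = 6.64e-08) and fell with oxamate (-0.74 ± 0.11, adjusted p = 1.59e-06). With lactate it was higher than with oxamate alone (0.32 ± 0.11, adjusted p = 0.0192), but 7 of 12 alternatives lost this call, with values from 0.12 to 0.31. They were RLE size factors (0.26), upper quartile factors (0.12), the stricter filter (0.20), DESeq2 (0.26) and the fits without oxamate replicate 1 (0.31) or 2 (0.13) or oxamate plus lactate replicate 2 (0.27). The level with lactate remained below that of hypoxia (-0.42 ± 0.11, adjusted p = 0.00103). It was above that of normoxia (0.50 ± 0.11), a call lost with library totals alone (0.15). Oxamate against normoxia did not pass (0.19 ± 0.12), though it passed as higher with RLE size factors (0.27), the stricter filter (0.27), the 2 groups alone (0.27) and without oxamate replicate 2 (0.37).

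TLR3 (ENSG00000164342), encoding the endosomal receptor of double-stranded RNA, lies on the plus strand of chromosome 4 from 186069152 to 186088069. Counts were 66 and 78 in normoxic libraries, 77 and 88 in hypoxic ones, 16 and 14 under oxamate and 13 and 18 once lactate was added, and its standard errors were the largest of the 8 genes in each of the 6 comparisons. In CPM these were 2.46 and 2.47, 2.61 and 3.10, 0.619 and 0.566, and 0.661 and 0.734. The 4 libraries with oxamate, whether or not they held lactate, were all below the 4 without it. TLR3 fell with oxamate to 0.209 of its hypoxia level (-2.26 ± 0.29, adjusted p = 2.72e-07), and stayed lower than hypoxia when lactate was added (-2.02 ± 0.29). Neither hypoxia against normoxia (0.21 ± 0.23, 95% interval -0.27 to 0.70) nor lactate against oxamate alone (0.24 ± 0.36, interval -0.51 to 0.98) passed, and both intervals are wide.

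MAVS (ENSG00000088888), the adaptor of MDA5 and RIG-I, lies on the plus strand of chromosome 20 from 3846799 to 3876123. It was at 85.2 and 85.2 CPM in normoxic libraries, 83.0 and 80.4 in hypoxic ones, 38.9 and 39.3 under oxamate and 35.0 and 32.7 once lactate was added. The levels fell into a high pair of groups and a low pair. Hypoxia against normoxia did not pass (-0.06 ± 0.043, adjusted p = 0.216), and passed as lower only with library totals alone (-0.13). Oxamate lowered MAVS to 0.479 of its hypoxia level (-1.06 ± 0.048, adjusted p = 4.71e-15). Lactate did not raise it, and the level was lower again than with oxamate alone (-0.21 ± 0.056, adjusted p = 0.00205), a call lost without oxamate plus lactate replicate 2 (-0.15).

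The kinase gene TBK1 (ENSG00000183735) lies on the plus strand of chromosome 12 from 64451880 to 64502108. It was at 60.7 and 57.8 CPM in normoxic libraries, 59.0 and 60.1 in hypoxic ones, 19.8 and 22.5 under oxamate and 103 and 96.5 once lactate was added. Normoxia and hypoxia overlapped, the oxamate libraries were lowest, and those with lactate added exceeded every other library. Hypoxia made no passing difference (0.01 ± 0.052, 95% interval -0.10 to 0.12, adjusted p = 0.903). Oxamate lowered TBK1 to 0.355 of its hypoxia level (-1.49 ± 0.062, adjusted p = 8.85e-16). Adding lactate raised it 4.72-fold over oxamate alone (2.24 ± 0.060, adjusted p = 1.44e-18), and 4.09% of the tested genes had a larger increase in that comparison. TBK1 ended above its level in hypoxia (0.74 ± 0.051, adjusted p = 9.75e-12) and above that in normoxia (0.75 ± 0.051). Over 12 alternatives the increase over oxamate ranged from 2.05 to 2.30 and passed in each.

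IRF3 (ENSG00000126456), encoding the transcription factor that TBK1 phosphorylates, lies on the minus strand of chromosome 19 from 49659569 to 49665875. It was at 50.8 and 50.4 CPM in normoxic libraries, 48.7 and 49.0 in hypoxic ones, 40.9 and 44.3 under oxamate and 28.6 and 30.8 once lactate was added. The groups did not overlap, and the range was narrow, with the highest mean 1.70 times the lowest. Hypoxia against normoxia did not pass (-0.05 ± 0.053, adjusted p = 0.402). IRF3 was lower with oxamate by a small amount (-0.20 ± 0.055, adjusted p = 0.00248), a call lost with RLE size factors (-0.12), in DESeq2 (-0.12), in a fit of the 2 groups alone (-0.09) and without oxamate replicate 1 (-0.03). Its decrease against normoxia (-0.25 ± 0.055) was lost in DESeq2 (-0.16) and without oxamate replicate 1 (-0.09). Lactate lowered it further (-0.52 ± 0.061 against oxamate, adjusted p = 1.30e-07; -0.72 ± 0.059 against hypoxia). Of the exon bases of IRF3, 19.3% are shared with BCL2L12 on the opposite strand, which stood at 75.3% of the level of IRF3 over all libraries. BCL2L12 changed by 0.64 with oxamate and by -0.76 with lactate added, and the counting is not stated to use strand.

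In hypoxia against normoxia, the question was which of these genes differ when oxygen is lowered without drug. STING1, TREX1 and IFIH1 rose, CGAS fell, and TBK1, IRF3, MAVS and TLR3 did not pass. That is 4 of 8 genes, while 73.5% of all tested genes passed (36.7% higher and 36.8% lower). The rise of TREX1 is subject to its overlap with ATRIP, and the summed counts of both genes rose by 0.25. The median log2 fold change of the 8 was 0.11, against 0.02 for all tested genes. With upper quartile factors the median of all genes was 0.12, and MAVS and IRF3 changed sign (0.045 and 0.055).

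Oxamate against hypoxia asked which of these genes differ when hypoxic cells are given oxamate. The counts hold no measure of lactate or of lactate dehydrogenase activity. All 8 genes were lower, from -0.20 in IRF3 to -2.26 in TLR3, with a median of -0.90. Of all tested genes, 80.5% passed, 35.7% as higher and 44.8% as lower, and their median was -0.20. The calls of CGAS and IRF3 depended on the processing as given above, and those of the other 6 held in all alternatives run. With library totals in place of TMM, 4143 genes were called higher and 8508 lower, instead of 5560 and 6965, and the median of all genes was -0.52. Under that scaling the 8 values were lower by a similar amount, with TBK1 at -1.81 and MAVS at -1.38. Relative to the median of all genes, IRF3 was at the middle in the main analysis, since 49.9% of tested genes had lower values.

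Lactate added to oxamate asked whether expression in oxamate-treated hypoxic cells returns when lactate is added. TBK1 and IFIH1 were higher, STING1, IRF3 and MAVS were lower, and CGAS, TREX1 and TLR3 did not pass. These 5 of 8 stand beside 64.9% of all tested genes, with 33.2% higher and 31.7% lower. The calls of IFIH1 and MAVS depended on the processing as given above, with that of IFIH1 lost in 7 of 12 alternatives. Those of TBK1, STING1 and IRF3 held in all 12, and the value of IRF3 is subject to its overlap with BCL2L12. The sum of TREX1 and ATRIP, unlike TREX1 alone, was lower (-0.38). The median of the 8 was 0.09, against -0.02 for all genes. With upper quartile factors the median of all genes moved to -0.21 and the split from 5160 higher and 4927 lower to 4150 and 6340. The stricter count filter moved the median to -0.13. Relative to these shifts the large increase of TBK1 and the decreases of STING1 and IRF3 kept their side.

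Against hypoxia without drug, the cells with oxamate and lactate had 1 gene higher, TBK1, and 6 lower, with CGAS not passing. Of all tested genes 78.6% passed, 38.5% higher and 40.2% lower. STING1 (-1.28), TREX1 (-1.28, or -0.84 when summed with ATRIP), MAVS (-1.27) and TLR3 (-2.02) lay well below hypoxia. Decreases were smaller in IRF3 (-0.72) and IFIH1 (-0.42). Calls split into 4683 higher and 7693 lower with upper quartile factors and into 4541 and 7841 with library totals, against 5981 and 6246 in the main analysis. The medians of all genes were then -0.31 and -0.34, and TBK1 was higher under both, by at least 0.46.

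**Figure D3:**
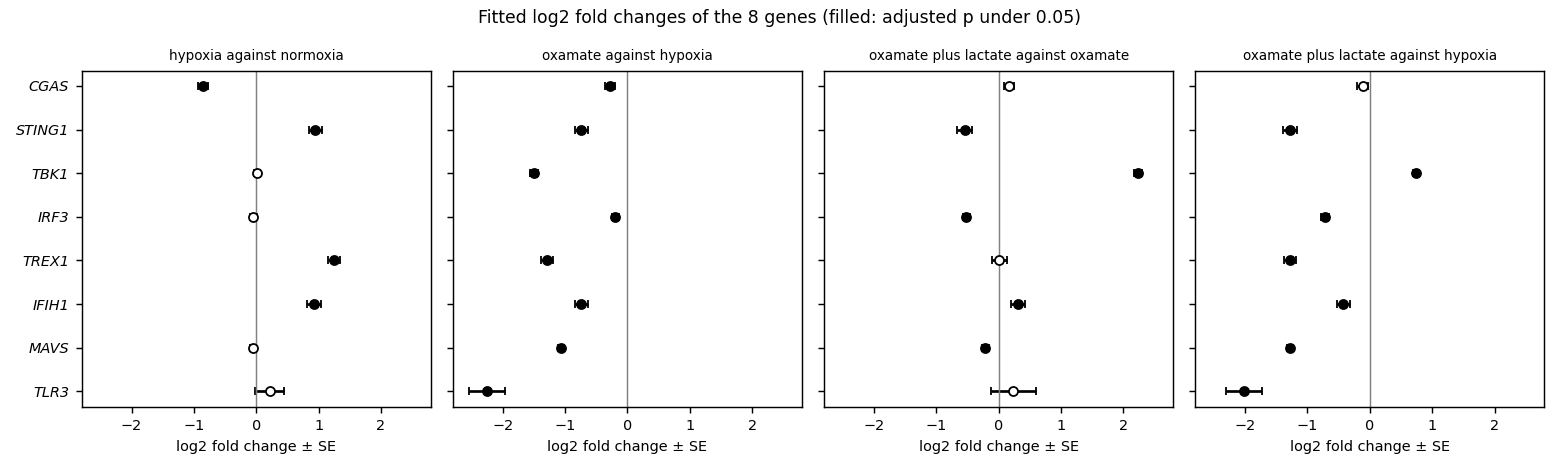
Fitted log2 fold change ± SE (horizontal axes) of each gene in 4 comparisons; filled points passed at an adjusted p under 0.05. All 8 points lie below 0 for oxamate against hypoxia, and TBK1 lies at 2.24 for lactate added to oxamate.

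Compared with normoxia, oxamate-treated hypoxic cells had lower CGAS (-1.14 ± 0.078), TBK1 (-1.49 ± 0.062), IRF3, MAVS (-1.12 ± 0.048) and TLR3 (-2.04 ± 0.29), and 72.0% of all tested genes passed, 31.9% as higher and 40.1% as lower. With lactate added, 5 genes were lower than in normoxia and TBK1 and IFIH1 higher, where 72.7% of tested genes passed, 35.9% as higher and 36.8% as lower. With library totals alone, the medians of all genes against normoxia were -0.52 with oxamate and -0.39 with lactate added, and the calls split into 2838 higher and 8762 lower and into 3659 and 8119. The main analysis gave 4957 higher and 6238 lower, and 5589 and 5719.

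**Figure D4:**
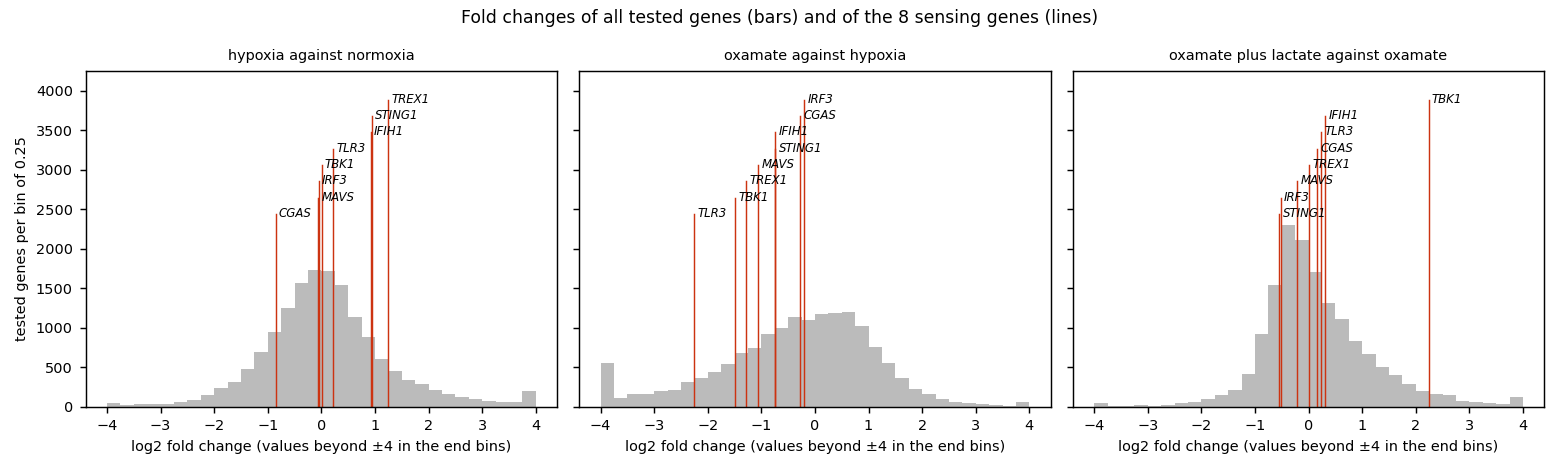
Number of tested genes per bin of log2 fold change (grey bars) in 3 comparisons, with the value of each of the 8 genes as a red line. With oxamate TLR3 is the leftmost of the 8 at -2.26, and with lactate added TBK1 lies far to the right of the other 7 at 2.24.

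Across the 8 libraries the genes did not share one profile. Among their 28 pairs, Pearson's r of log2 CPM ranged from -0.46 for CGAS and IFIH1 to 0.97 for MAVS and TLR3. STING1 and TREX1 had 0.89, subject to the overlap of TREX1 with ATRIP. IRF3 and MAVS had 0.85, and CGAS and STING1, the sensor and its receptor, -0.13. TBK1 had at most 0.34, with IFIH1. These coefficients rest on 4 groups of 2 libraries of one cell line and describe these libraries only. By root mean square difference of centred log2 CPM over the 8 libraries, the gene nearest to TBK1 was RAPGEF2 (0.090, r = 0.995), followed by HSDL1 (0.107). MLEC (0.054) and SLC30A5 (0.064) were nearest to CGAS, PROS1 (0.055) and the cathepsin gene CTSB (0.085) to STING1, and FASTK (0.042) and C2orf74 (0.049) to IRF3. TLE2 (0.096) and DENND3 were nearest to TREX1, and DSG2 (0.086), encoding desmoglein 2, and SNHG21 (0.091) to IFIH1. RPN2 (0.082) and the pseudogene GTF2IP12 (0.089), whose counts are uncertain because copies share its sequence, were nearest to MAVS, and MEIS2 (0.108) and AGRN (0.134), encoding agrin, to TLR3.

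Other genes of the pathway were read in 7 lists, each with its counts and its median log2 fold change. Over all tested genes, 36.7% were higher and 36.8% lower in hypoxia (median 0.02), 35.7% and 44.8% under oxamate (-0.20), and 33.2% and 31.7% once lactate joined oxamate (-0.02). In hypoxia, 6 of 14 tested genes of RNA sensing rose and 6 fell, with a median of 0.12, beside 73.5% of all tested genes that passed in either direction. DDX60, a helicase gene, rose by 1.36 ± 0.16, and ZC3HAV1, encoding the antiviral zinc finger protein ZAP, changed by -1.44 ± 0.057. RIGI, the cytosolic sensor related to MDA5, was lower (-0.45 ± 0.19, adjusted p = 0.0373), a call that 6 of 12 alternatives lost, with -0.35 with upper quartile factors, -0.41 with the stricter filter, -0.45 in DESeq2 and -0.37, -0.54 and -0.20 without normoxia replicate 1 or 2 or hypoxia replicate 2. With oxamate 7 rose and 6 fell (median 0.18), among them OAS3, encoding an oligoadenylate synthetase, at 0.76 ± 0.041. With lactate added to oxamate 4 rose and 7 fell (median -0.21). TICAM1, which encodes TRIF, rose by 1.44 ± 0.099, while NLRX1, encoding a mitochondrial NLR protein, was at -1.01 ± 0.11.

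DNA sensors and cofactors had 10 tested genes. In hypoxia 3 rose and 6 fell (median -0.25, beside 36.7% and 36.8% of all tested genes), including the helicase gene DDX41 (1.17 ± 0.037) and G3BP1 (-1.12 ± 0.036), encoding a stress granule protein that binds cGAS. With oxamate 7 rose and 3 fell (median 0.75, beside 35.7% and 44.8% of all tested genes). These included PQBP1 (1.83 ± 0.055) and the nuclear DNA sensor gene IFI16 (-0.75 ± 0.043). With lactate added 9 fell, led by MRE11 (-0.87 ± 0.057), encoding a DNA repair nuclease, and DDX41 alone rose (0.22 ± 0.036), with a median of -0.46 against -0.02 for all tested genes, of which 31.7% were lower and 33.2% higher. The call of DDX41 was lost with upper quartile factors (0.02) and without oxamate replicate 1 (0.10). AIM2, ZBP1, TLR9 and PYHIN1 were below the filter.

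Nucleases and other brakes on self nucleic acid showed 4 of 11 higher and 6 lower in hypoxia (median -0.40), 7 higher and 4 lower with oxamate (0.69), and 1 higher and 8 lower with lactate added (-0.21). The shares of all tested genes that were higher and lower were 36.7% and 36.8%, 35.7% and 44.8%, and 33.2% and 31.7% in these comparisons. PNPT1, encoding the mitochondrial RNA-degrading enzyme PNPase, changed by -1.94 ± 0.055 in hypoxia and 2.05 ± 0.055 with oxamate. PLD3, an endolysosomal exonuclease gene, rose in hypoxia (1.00 ± 0.063). DNASE1, encoding a secreted DNase, was at -2.03 ± 0.11 with oxamate and 0.81 ± 0.13 with lactate added. SAMHD1, encoding a dNTP hydrolase, was at -1.36 ± 0.066 with lactate added.

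Of 5 tested genes of cGAMP breakdown and transport, none rose and 3 fell in hypoxia (median -0.41), beside 36.7% and 36.8% of all tested genes. SLC19A1, encoding a folate carrier that imports cGAMP, changed by -2.06 ± 0.067 in hypoxia, 1.72 ± 0.070 under oxamate and -0.67 ± 0.065 once lactate was added. LRRC8C, a subunit gene of volume-regulated anion channels, changed by -1.21 ± 0.11 with oxamate and 2.45 ± 0.10 with lactate added. The list had 2 higher and 2 lower with oxamate (median -0.03) and 2 higher and 1 lower with lactate (0.17). Of all tested genes, 35.7% were higher and 44.8% lower with oxamate, and 33.2% and 31.7% with lactate added. ENPP1, encoding the extracellular cGAMP hydrolase, had no more than 2 counts in any library.

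All 20 genes of STING and MAVS trafficking and turnover were tested. In hypoxia 8 rose and 8 fell (median -0.05), where 73.5% of all tested genes passed, led by RNF5 (1.01 ± 0.068), a ubiquitin ligase gene, and STEEP1 (-0.84 ± 0.074), encoding a factor for STING exit from the endoplasmic reticulum. With oxamate 9 rose and 10 fell (-0.07, beside 35.7% and 44.8% of all tested genes). They were led by TMED2 (0.92 ± 0.033) and TRIM32 (-2.88 ± 0.13), another ubiquitin ligase gene. With lactate added 11 rose and 5 fell (0.15, beside 33.2% and 31.7% of all tested genes), led by TRIM32 (1.58 ± 0.16) and PCBP1 (-0.56 ± 0.032).

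The signal relay around TBK1 and IRF3 had 17 tested genes. In hypoxia 8 rose and 7 fell (median 0.07), with OPTN, encoding the TBK1-binding protein optineurin, at 2.00 ± 0.051 and CHUK, encoding the kinase IKKα, at -1.68 ± 0.055. With oxamate 8 rose and 8 fell (0.06), with CHUK at 1.69 ± 0.056 and IRF9, encoding the DNA-binding subunit of the interferon-activated complex ISGF3, at -2.68 ± 0.11. Of all tested genes, 36.7% were higher and 36.8% lower in hypoxia, and 35.7% and 44.8% with oxamate. With lactate added 11 rose and 3 fell (median 0.43), while 33.2% of all tested genes were higher and 31.7% lower (median -0.02). TRAF6, a ubiquitin ligase gene, rose by 1.71 ± 0.057. IKBKE, encoding the kinase most closely related to TBK1, fell with lactate added (-0.86 ± 0.15), where TBK1 rose. With oxamate IKBKE was higher (0.42), where TBK1 was lower, but that call was lost with library totals (0.10) and without hypoxia replicate 2 (0.38).

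Outputs that can be induced through IRF3 had 10 of 15 genes tested. IFNB1 and IFNL3 had 0 counts in every library, IFNL1 had 1 count in all and IFNL2 at most 4 counts in a library, so interferon transcripts were at or near the floor in all 4 groups. In hypoxia 4 rose and 4 fell (median -0.04, beside 36.7% and 36.8% of all tested genes). IFIT1 was at 2.01 ± 0.089 and IFIT3 at -0.77 ± 0.18. With oxamate 4 rose and 3 fell (0.27, beside 35.7% and 44.8% of all tested genes). OASL was at 1.77 ± 0.13 and IFIT1 at -2.61 ± 0.098. With lactate added 7 rose and 1 fell (0.47, beside 33.2% and 31.7% of all tested genes), with the apoptosis gene PMAIP1 rising by 1.28 ± 0.094 and MX1 the gene that was lower (-0.82 ± 0.35, adjusted p = 0.0461). The call of MX1 was lost in 7 of 12 alternatives, with -0.78 with library totals, -0.81 without the filter, with the 2 groups alone and with the replicate block, -0.87 in DESeq2, -0.76 without oxamate replicate 1 and -0.46 without oxamate plus lactate replicate 2. IFIT1, IFIT3, OASL and MX1 are antiviral genes that interferon also induces.

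**Figure D5:**
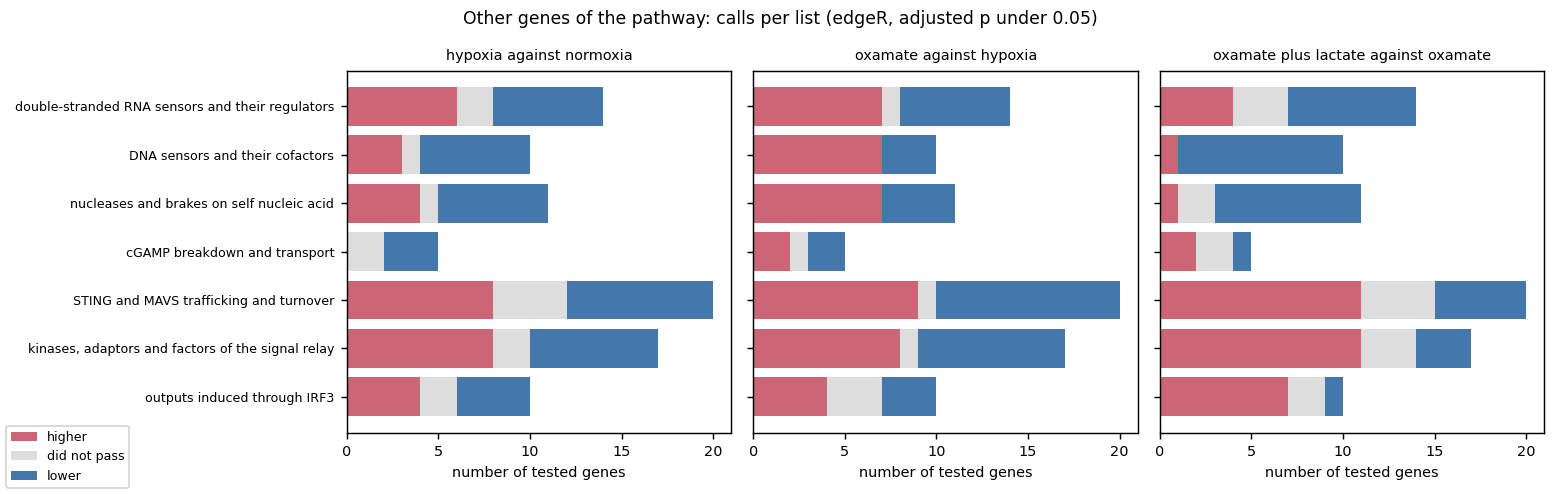
Number of tested genes per list (horizontal axes) that were higher (red), lower (blue) or did not pass (grey) in 3 comparisons. With lactate added to oxamate, 9 of 10 DNA sensor genes are lower, beside 31.7% of all tested genes, and 11 of 17 relay genes higher, beside 33.2%.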

How the data were processed

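The 8 RNA-seq libraries of KYSE150 cells, from poly(A)-selected RNA, were grouped by sample title into 4 groups of 2. The authors deposited these as a single table of whole-number read counts by gene, not normalized. The submitters' processing notes name RSEM 1.3.3, FastQC 0.11.9 and STAR 2.7.8a, with GRCh38 (hg38) as build and no role for any tool, so the counts may be rounded estimates. Strand setting and annotation were not given in the labels. The 46 second copies of pseudoautosomal genes, with 0 counts, were left out.

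The tests used edgeR 4.0.16 in R 4.3.3 (filterByExpr with a minimum count of 10, TMM, robust glmQLFit on 4 group means with 4 residual degrees of freedom, two-sided glmQLFTest). Benjamini-Hochberg adjustment ran over all 15554 tested genes in each of 6 comparisons. Comparisons with a common group share its libraries. Alternatives were RLE and upper quartile factors, library totals alone, no filter, a filter of 50 counts in 2 libraries, DESeq2 1.42.0, the 2 groups alone, a replicate block and leaving out each library. No pair of replicates was close enough to be 1 library deposited again (chi-square per degree of freedom 1.84 to 4.59). The genes, the lists and the tests were chosen with earlier results of these data known. Named genes are the 8 members and, per list and for each of the first 3 comparisons, the passing gene with the largest increase and with the largest decrease at a mean log2 CPM of at least 1. The 2 genes nearest to each member are named too, by log2 CPM (prior count 2). Other named genes (RIGI, ATRIP, BCL2L12, MX1, IKBKE with oxamate and those below the filter) were chosen after their values were seen. RIGI and SKIC2 were matched by gene identifier. A gene that the rule names is not reported here. Positions and exon lengths are from GENCODE 29 and promoters from RefSeq. Floors cover counting error only.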

Additional observations from a re-analysis of the deposited data

How the results depend on the processing

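Of 582 values of the 8 genes under alternatives, 520 kept their direction and side of the threshold, 22 lost a call, 17 gained one and 23 changed sign. None of the sign changes involved a main value that had passed. For TBK1 in hypoxia against normoxia the value was -0.060 with library totals and -0.0036 without a low-count filter, and ranged from -0.027 to 0.034 when a library was left out, with -0.0066 without hypoxia replicate 2. In that comparison IRF3 was at 0.055 and MAVS at 0.045 with upper quartile factors. For lactate added to oxamate, CGAS was at -0.025 with upper quartile factors and ranged from -0.0014, without oxamate replicate 2, to 0.19 when a library was left out. TREX1 there was at -0.046 with RLE factors, -0.18 with upper quartile factors, -0.11 with the stricter filter, -0.048 in DESeq2 and -0.38 when summed with ATRIP. It ranged from -0.27, without oxamate replicate 2, to 0.13 when a library was left out, with -0.083 without oxamate plus lactate replicate 2. For oxamate against normoxia, library totals gave -0.20 for IFIH1 and -0.18 for STING1. TREX1 there was at 0.040 with RLE factors, 0.035 with the stricter filter, 0.037 in DESeq2 and 0.036 in the 2 groups alone, and ranged from -0.17 to 0.24 when a library was left out. For oxamate plus lactate against normoxia TREX1 ranged from -0.14 to 0.055 when a library was left out. The cause was not tested, except that summing joins overlapping genes.

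The number of the 8 genes that passed was within 1.5 times the main number in 71 of 72 alternatives. For lactate added to oxamate it ranged from 3 to 5 when a library was left out, with 3 reached without oxamate plus lactate replicate 2. With the replicate number as a block, 4, 8, 5 and 7 genes passed in the first 4 comparisons and 5 and 7 in those of both oxamate groups against normoxia. These are the main numbers, and no call of the 8 changed. The numbers are not stated to pair samples, and deviations of same-numbered libraries correlated between -0.05 and 0.01 over 6 pairs of groups. Of 636 values of other named genes, 619 kept their call, and the 17 that lost it are those of DDX41, RIGI, IKBKE and MX1 given above. TLR3 had 13 to 18 counts in the libraries with both agents.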
